A study of Mus musculus with 6 samples.

Results

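The genes described are Ptprc, which codes for the leukocyte phosphatase CD45, and Ptprcap, which codes for the small CD45-associated protein. They are 2 of the 20279 genes in the count matrices of 6 single-cell Nanopore long-read libraries, and both were found by symbol in all 6. They were chosen because their levels per protocol and per cell class had been seen in these data and because one gene is long with many isoforms and the other short, so their levels by protocol and by class are given as a description without a test. The labels give the tissue of every library as spleen, from 10-week-old females, and C57BL/6 is the strain named for the series. The modified 5′ libraries received an added 1 µl of 10 mM dNTP, a reverse transcription extension of 2 h and an amplification extension of 3 min, the standard 5′ libraries had extensions of 45 min and 1 min, and the 3′ libraries carry the barcode at the poly(A) end of the cDNA. Each protocol had 2 libraries, called replicates 1 and 2, and the labels do not say whether they came from separate animals, so every error and p-value here reflects how far libraries differ, for technical or other reasons.

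CD45 is a receptor-type tyrosine phosphatase that sits on nearly all nucleated blood cells. It removes an inhibitory phosphate from Src family kinases such as Lck in T cells and Lyn in B cells, and so sets how readily antigen receptors signal, while the kinase Csk puts that phosphate back. Exons of its outer domain are spliced in or out by cell type and activation state, and mouse B cells carry a long form known as B220. The CD45-associated protein is a single-pass membrane protein known from lymphocytes, where it binds CD45 within the membrane.

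Ptprc (ENSMUSG00000026395.16) lies on the minus strand at chr1:138062861-138175708 in mm10, a span of 112848 bases, and has 13 transcripts in GENCODE M21, of which 5 are annotated as protein coding and 8 as retained introns. Its transcript Ptprc-207 has 33 exons, 5074 nt and a coding sequence of 3879 nt. Another annotated gene, A130071D04Rik, overlaps Ptprc by 5864 bases on the same strand, and its level is not described here. The exons that set the isoforms are shown because the gene-level counts cannot tell them apart. Exons 4, 5 and 6, known as A, B and C, are in Ptprc-207 and absent from Ptprc-203 (4702 nt), and Ptprc-204 (4611 nt) also lacks exon 7. Capitals mark the in-frame serine and threonine codons (TCN, AGT, AGC and ACN), the residues that carry O-linked sugars in this stretch of the protein. They made up 14 of 42 whole codons in exon 4, 13 of 48 in exon 5, 16 of 46 in exon 6 and 11 of 23 in exon 7, against 199 of 1293 codons (15.4%) in the whole coding sequence. The sequences are on the coding strand, 5′ to 3′, from GENCODE M21.
Ptprc exon 4 (A), chr1:138122456-138122584, minus strand: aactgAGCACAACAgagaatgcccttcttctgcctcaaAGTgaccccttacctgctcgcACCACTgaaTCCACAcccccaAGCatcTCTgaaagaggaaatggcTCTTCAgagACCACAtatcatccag
Ptprc exon 5 (B), chr1:138120020-138120166, minus strand: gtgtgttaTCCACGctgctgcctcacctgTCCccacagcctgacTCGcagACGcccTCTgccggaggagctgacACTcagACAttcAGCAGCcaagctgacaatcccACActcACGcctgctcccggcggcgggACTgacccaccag
Ptprc exon 6 (C), chr1:138117754-138117894, minus strand: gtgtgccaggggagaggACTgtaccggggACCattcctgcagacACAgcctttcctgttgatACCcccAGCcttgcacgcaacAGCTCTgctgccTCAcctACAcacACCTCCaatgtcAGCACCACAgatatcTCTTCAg
Ptprc exon 7, chr1:138116954-138117025, minus strand: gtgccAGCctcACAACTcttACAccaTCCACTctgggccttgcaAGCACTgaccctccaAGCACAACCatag

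Ptprcap (ENSMUSG00000045826.9) lies on the plus strand at chr19:4153604-4156751, a span of 3148 bases with 2 protein-coding transcripts of 927 and 1082 nt. The shorter transcript has 2 exons, and its coding sequence of 591 nt has 3 bases in exon 1 and 588 in exon 2. Its first 150 coding bases are shown because nearly all of the gene is shared with a neighbour on the other strand, and capitals mark the 3 bases that come from exon 1.
Ptprcap coding start, chr19:4154701-4154703 and chr19:4155923-4156069, plus strand: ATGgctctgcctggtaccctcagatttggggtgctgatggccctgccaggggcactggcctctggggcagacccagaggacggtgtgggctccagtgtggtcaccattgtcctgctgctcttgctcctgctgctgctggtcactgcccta
A protein-coding transcript of 4586 nt of Rps6kb2, a ribosomal S6 kinase gene on the minus strand, covers all 927 bases of the exons of the shorter Ptprcap transcript. Of the 31-base words of the Ptprcap transcripts of 927 and 1082 nt, read on both strands, 96.9% and 97.6% also occur in transcripts of other genes, against 0% for Ptprc-207 and at most 1.98% for any Ptprc transcript. Of those shared words of Ptprcap, 1140 occur in Rps6kb2 and 402 in Coro1b, the gene of an actin-binding coronin that overlaps Ptprcap by 432 bases on the same strand. The use of strand in counting is not given in the sources used here. Reads of Ptprcap and of Rps6kb2 may have been split in a way that the counts do not show.

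Depth ranged from 723341 to 2627253 counts per library. Kept cells are barcodes with 200 genes or more and no more than 20% of counts from mitochondrial genes, and levels are in CPM, the summed counts of kept cells scaled to a common library total. One library differed from the rest: in standard 5′ replicate 1 the filter passed 34.0% of barcodes, and its kept cells had a median depth of 332 counts, where the other 5 libraries had 481 to 604. Haemoglobin genes held 13.4% to 22.3% of the counts in replicate 1 libraries and 0.320% to 0.524% in replicate 2 libraries. The extraction text of replicate 2 describes pancreatic islets and removal of insulin cDNA, which goes against the spleen label, and pancreas markers had 101 counts in modified 5′ replicate 2 and 3 to 10 counts in each other library. All 16 T cell markers were higher in T-like cells than in the other cells of every library, as were 14 or 15 of 15 B cell markers in B-like cells. Any 2 libraries shared at most 14 cell barcodes. T-like cells numbered 347 to 1173 and B-like cells 404 to 2275 per library, and the smaller classes are described by their values without a fit.

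Both genes had their lowest levels in 5′ libraries, and the difference from 3′ was far larger for the short gene. Ptprc had 628 and 656 CPM in modified 5′ libraries, 563 and 583 CPM in standard 5′ libraries, and 1184 and 1086 CPM in 3′ libraries (replicates 1 and 2 in each). The 3′ libraries did not overlap with either 5′ group, and the modified 5′ libraries lay just above the standard 5′ ones. Ptprcap had 146.2 and 151 CPM in modified 5′ libraries, 167 and 146.1 CPM in standard 5′ libraries, and 624 and 903 CPM in 3′ libraries. Here too the 3′ libraries stood above all 5′ libraries, while the 5′ groups overlapped. These levels rest on 205 to 2686 counts of Ptprc and 61 to 2234 counts of Ptprcap per library, the fewest of both in standard 5′ replicate 1.

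**Figure D1:**
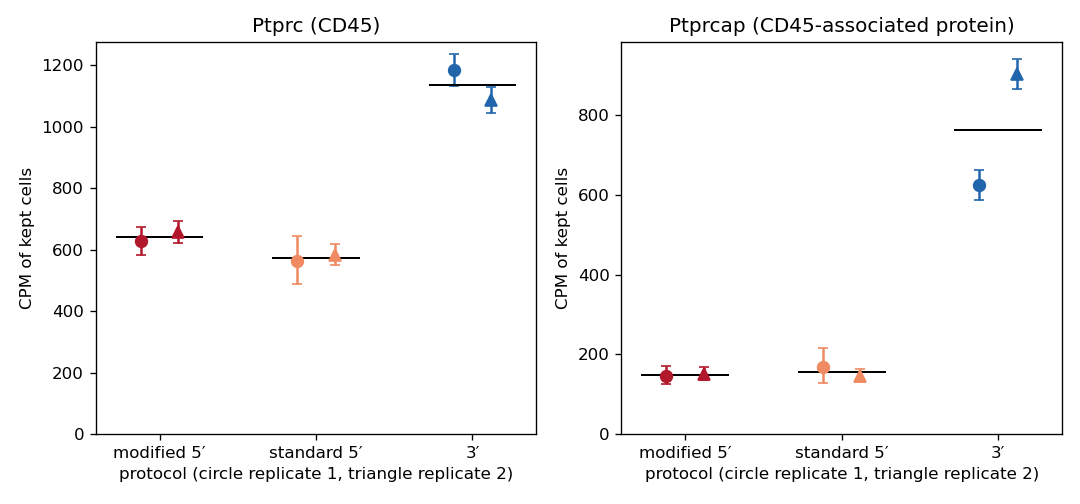
Level of Ptprc and of Ptprcap in CPM of kept cells (vertical axis) by protocol (horizontal axis), with 1 point per library, exact 95% Poisson intervals that cover counting error only, and a line at the mean of each protocol. Ptprc is at 1184 and 1086 CPM and Ptprcap at 624 and 903 CPM in 3′ libraries, above all 5′ libraries.

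Averaged over libraries, Ptprc was at 642 ± 19.97 CPM in modified 5′ libraries, 573 ± 14.2 CPM in standard 5′ libraries and 1135 ± 69.8 CPM in 3′ libraries (SD, n = 2 each). Ptprcap averaged 149 ± 3.28 CPM in modified 5′ libraries, 157 ± 15.1 CPM in standard 5′ libraries and 763 ± 197 CPM in 3′ libraries (SD, n = 2 each). The 2 libraries of 3′ differed more for Ptprcap than those of either 5′ group did.

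Fold changes from edgeR's fit over all 11539 genes tested, scaled by TMM factors that equalise the bulk of genes, put Ptprc at a log2 difference of -0.48 ± 0.19 (SE) in modified 5′ against 3′ libraries and -0.61 ± 0.19 in standard 5′ against 3′ libraries. Ptprcap was at -2.01 ± 0.23 in modified 5′ against 3′ libraries and -1.91 ± 0.23 in standard 5′ against 3′ libraries. Over all tested genes 8.24% passed the edgeR test as lower in modified 5′ and 10.8% in standard 5′ libraries against 3′, and since the members were chosen on this contrast nothing is read from their place among them. A lower fold than that of Ptprcap was seen for 1.73% of tested genes in modified 5′ against 3′ and for 4.00% in standard 5′ against 3′. For Ptprc those shares were 29.0% and 26.8%. Between modified and standard 5′ libraries the log2 difference was 0.13 ± 0.19 for Ptprc and -0.10 ± 0.23 for Ptprcap, both smaller than their errors. Scaled by library totals alone, an alternative chosen after seeing the data, the median of all genes moved to -0.37 in modified 5′ against 3′ and to -0.39 in standard 5′ against 3′. On that scale Ptprc was at -0.83 and -0.99 and Ptprcap at -2.37 and -2.30, a shift that by construction is nearly the same for every gene. Without standard 5′ replicate 1, standard 5′ against 3′ gave -0.57 for Ptprc and -1.99 for Ptprcap, and modified against standard 5′ gave 0.01 for Ptprcap, with the sign turned.

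Within replicate 1, the raw CPM gave a log2 difference of -0.91 for Ptprc in modified 5′ against 3′ and -1.07 in standard 5′ against 3′. Within replicate 2 the values for Ptprc were -0.73 and -0.90. For Ptprcap, replicate 1 gave -2.09 in modified 5′ against 3′ and -1.89 in standard 5′ against 3′, and replicate 2 gave -2.57 and -2.62. Both genes were therefore lower in 5′ than in 3′ libraries inside each replicate number, which is the split that the extraction text and the haemoglobin share follow. Modified against standard 5′ gave 0.16 and 0.17 for Ptprc within replicates 1 and 2, and -0.19 and 0.05 for Ptprcap. For Ptprc the values were 0.18 and 0.22 in B-like and 0.08 and 0.17 in T-like cells. These differences were not tested.

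Set beside genes of like length, Ptprc was close to the median and Ptprcap was not, a contrast of long and short gene on which they were chosen. Among 10444 tested genes with an annotated coding transcript, differences were taken in 4 length classes of 2611 genes each. The median log2 difference of standard 5′ against 3′ libraries was 0.68 in the shortest class (228 to 1981 nt), 0.27 in the next (up to 3128 nt), -0.19 in the next (up to 4671 nt) and -0.54 in the longest class (4672 nt and over). Modified 5′ against 3′ libraries gave medians of 0.54, 0.19, -0.16 and -0.42 in the same order. Ptprc, at 5074 nt, lay near the median of the longest class in both. Ptprcap, at 1082 nt, belongs to the shortest class, where 82 of 2611 genes passed the test as lower in standard 5′ libraries and 854 as higher. Its difference of -1.91 thus lay on the other side of 0 from the median of genes of its length.

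**Figure D2:**
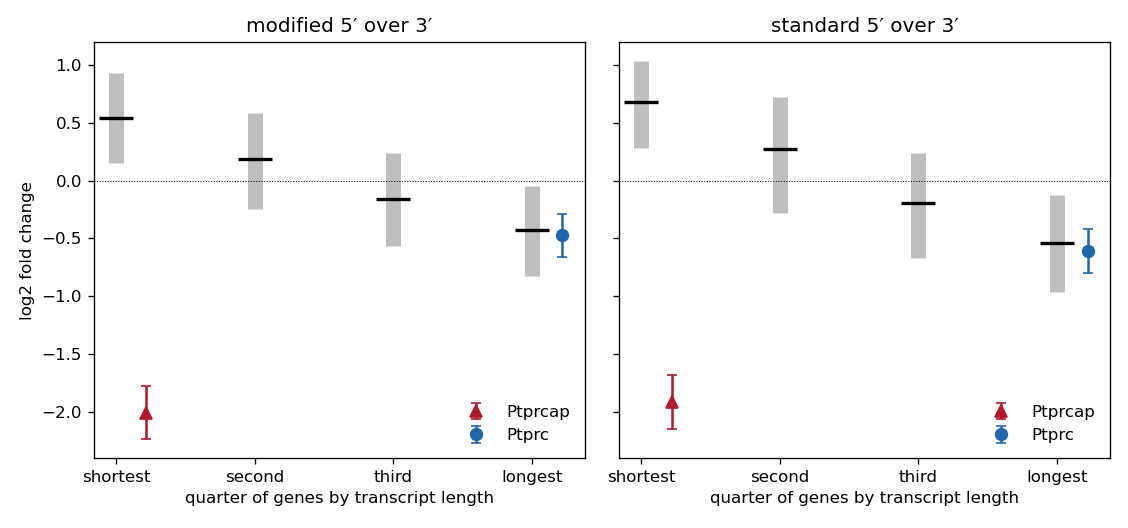
Log2 fold change over 3′ libraries (vertical axis) by length class of the transcript (horizontal axis, 4 classes of 2611 genes), for modified 5′ (left) and standard 5′ (right). Black bars are medians and grey bars run between the lower and upper quartiles; the points with SE bars are Ptprc, near the median of the longest class, and Ptprcap, at -2.01 and -1.91 below the bar of the shortest class.

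Because the differences were unequal, the balance of the counts shifted. Kept cells held 4.29 and 4.35 Ptprc counts per Ptprcap count in modified 5′ libraries, 3.36 and 3.99 in standard 5′ libraries, and 1.90 and 1.202 in 3′ libraries (replicates 1 and 2). In B-like cells the values were 3.55 and 3.51 in modified 5′ libraries, 2.83 and 2.96 in standard 5′ libraries, and 1.53 and 0.87 in 3′ libraries. In T-like cells they were 4.84 and 4.98 in modified 5′ libraries, 3.32 and 4.93 in standard 5′ libraries, and 2.23 and 1.43 in 3′ libraries. Every 5′ value lay above both 3′ values in these 3 sets, although in T-like cells the 95% interval of standard 5′ replicate 1 (2.16 to 5.27) overlapped with that of 3′ replicate 1 (1.97 to 2.54). Of these sets, B-like cells of 3′ replicate 2 were the one that held more counts of Ptprcap than of Ptprc. Levels were also divided by the length of the longest coding transcript, 5074 nt for Ptprc and 1082 nt for Ptprcap. On that scale Ptprcap was at 135 and 139 CPM per kb in modified 5′ libraries, 155 and 135 in standard 5′ libraries and 576 and 835 in 3′ libraries. The level of Ptprc on the same per-length scale was 124 and 129 CPM per kb in modified 5′ libraries, 111 and 115 in standard 5′ libraries and 233 and 214 in 3′ libraries. Over all kept cells Ptprcap was thus the higher of the pair per length in all 6 libraries, by a small margin in 5′ libraries and a wide one in 3′ libraries. Undivided, Ptprc had the higher level in all 6. Whether counts grow with transcript length in these libraries was not tested, and other lengths were not tried. The order per length is therefore no measure of which transcript was more abundant. That per-length order in 5′ libraries depended on the class. In T-like cells of modified 5′ libraries Ptprcap was at 161 and 143 CPM per kb and Ptprc at 166 and 152, and in those of standard 5′ libraries Ptprcap was at 221 and 129 and Ptprc at 157 and 135. In NK-like cells Ptprc was the higher per length in all 4 of the 5′ libraries, and in B-like cells Ptprcap was.

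**Figure D3:**
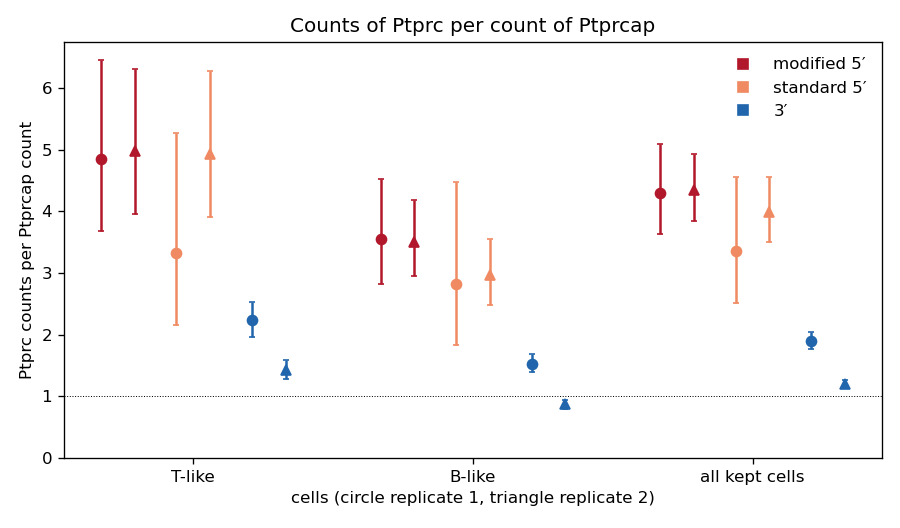
Ptprc counts per Ptprcap count (vertical axis) in T-like, B-like and all kept cells (horizontal axis), 1 point per library with exact 95% intervals for counting error; the dotted line marks equal counts. The 3′ libraries lie at 0.87 to 2.23, below all 5′ libraries.

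The genes that overlap Ptprcap did not share its pattern. Coro1b had 138 and 205 CPM in modified 5′ libraries, 195 and 209 CPM in standard 5′ libraries, and 38.1 and 61.0 CPM in 3′ libraries, the reverse order. It rose by 2.13 ± 0.27 on the log2 scale in modified 5′ against 3′ libraries (edgeR quasi-likelihood adjusted p = 0.0027) and by 2.40 ± 0.28 in standard 5′ against 3′ libraries (edgeR adjusted p = 0.0014). Rps6kb2 had 59.7 and 65.4 CPM in modified 5′ libraries, 24.7 and 57.8 CPM in standard 5′ libraries, and 51.4 and 74.4 CPM in 3′ libraries, and passed in neither comparison with 3′ (edgeR adjusted p = 0.43 and 0.92). The part of shared reads in the values of Ptprcap was not tested.

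By cell class, Ptprc was highest in NK-like cells. It had 1569 and 1110 CPM there in modified 5′ libraries, 2473 and 1221 CPM in standard 5′ libraries, and 2602 and 1788 CPM in 3′ libraries, with only 19 cells in standard 5′ replicate 1. T-like cells had less, with 842 and 772 CPM in modified 5′ libraries, 794 and 686 CPM in standard 5′ libraries, and 1580 and 1299 CPM in 3′ libraries. In B-like cells Ptprc was at 565 and 598 CPM in modified 5′ libraries, 500 and 513 CPM in standard 5′ libraries, and 1184 and 950 CPM in 3′ libraries. The order NK-like above T-like above B-like held in 6 of 6 libraries, with Poisson intervals apart at each step in all 6. The extent of the NK-like class depended on the clustering. At Leiden resolution 1.0 it had 101 and not 247 cells in 3′ replicate 2, 99 and not 192 in modified 5′ replicate 2, and 92 and not 45 in modified 5′ replicate 1. At that resolution modified 5′ replicate 2 also held an unnamed cluster of 113 cells led by Xcl1 and Ccl5. The level in NK-like cells was not computed at that resolution. Monocyte- or macrophage-like cells had 807 CPM of Ptprc in modified 5′ replicate 2, 694 and 706 CPM in standard 5′ libraries, and 1947 and 1519 CPM in 3′ libraries. They lay above T-like cells in 4 of the 5 libraries that held both classes, the level in T-like cells being 0.812 to 1.14 times theirs, and the separate 95% intervals overlapped in each. The difference itself was not tested. NK-like cells lay above monocyte- or macrophage-like cells in all 5 of these libraries, at 1.18 to 3.56 times their level, with intervals apart in 2.

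Ptprcap split the classes differently. In B-like cells it had 159 and 171 CPM in modified 5′ libraries, 177 and 173 CPM in standard 5′ libraries, and 774 and 1092 CPM in 3′ libraries. T-like cells were close by, with 174 and 155 CPM in modified 5′ libraries, 239 and 139 CPM in standard 5′ libraries, and 708 and 910 CPM in 3′ libraries. The log2 difference of T-like over B-like cells averaged 0.48 ± 0.11 for Ptprc and was above 0 in 6 of 6 libraries, whereas for Ptprcap it averaged -0.05 ± 0.28 and was above 0 in 2 of 6 (SD over libraries, n = 6 each). NK-like cells had 241 and 152 CPM of Ptprcap in modified 5′ libraries, 495 (3 counts) and 222 CPM in standard 5′ libraries, and 813 and 1096 CPM in 3′ libraries, and their intervals overlapped with those of T-like and of B-like cells in all 6.

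Monocyte- or macrophage-like cells were low in Ptprcap beside B-like and T-like cells. They had 22.01 CPM of Ptprcap in modified 5′ replicate 2, 49.6 and 22.3 CPM in standard 5′ libraries, and 157 and 120 CPM in 3′ libraries, on 1 to 23 counts. In 3′ replicate 2 the class pools 215 cells led by Lyz2, at 85.9 CPM of Ptprcap, and 30 cells led by Vcam1 with C1qb among their leading genes, at 455 CPM on 8 counts. B-like cells were 3.56 to 9.13 times higher in the 5 libraries with both classes, with intervals apart in 4. The exception was standard 5′ replicate 1, which held 33 such cells. For Ptprc the same classes stood the other way round, monocyte- or macrophage-like cells being 1.35 to 1.64 times above B-like cells in all 5. Erythroid-like cells, of the red cell lineage that loses CD45 as it matures, were led by haemoglobin genes in standard 5′ replicate 1 and 3′ replicate 1. In 3′ replicate 1 Mki67 and histone genes were also among the 10 leading genes of the cluster. In standard 5′ replicate 2 the cluster was led by Car1 and held mostly cell cycle genes, with 3 erythroid markers among its 10 leading genes. Erythroid-like cells had 17.6 (1 count) and 345 CPM of Ptprc in standard 5′ libraries and 57.9 CPM in 3′ replicate 1. Their Ptprcap levels were 0 and 122 CPM in standard 5′ libraries and 46.3 CPM in 3′ replicate 1. For the level of 0 the exact 95% Poisson interval reached 65.0 CPM, and 3 counts would have been 52.9 CPM. Plasma-like cells, the antibody-secreting end stage of B cells, had 138 CPM of Ptprc in standard 5′ replicate 2 and 96.4 CPM in 3′ replicate 2, on 8 and 9 counts. Their Ptprcap levels were 34.4 CPM (2 counts) and 150 CPM in the same libraries, and the class held 18 and 31 cells. Their CPM are shares of large totals, with medians of 3262.5 and 2946 counts per cell against 441 and 450 in B-like cells. A Ptprc count was seen in 33.3% and 29.0% of plasma-like cells and in 22.4% and 37.3% of B-like cells there.

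**Figure D4:**
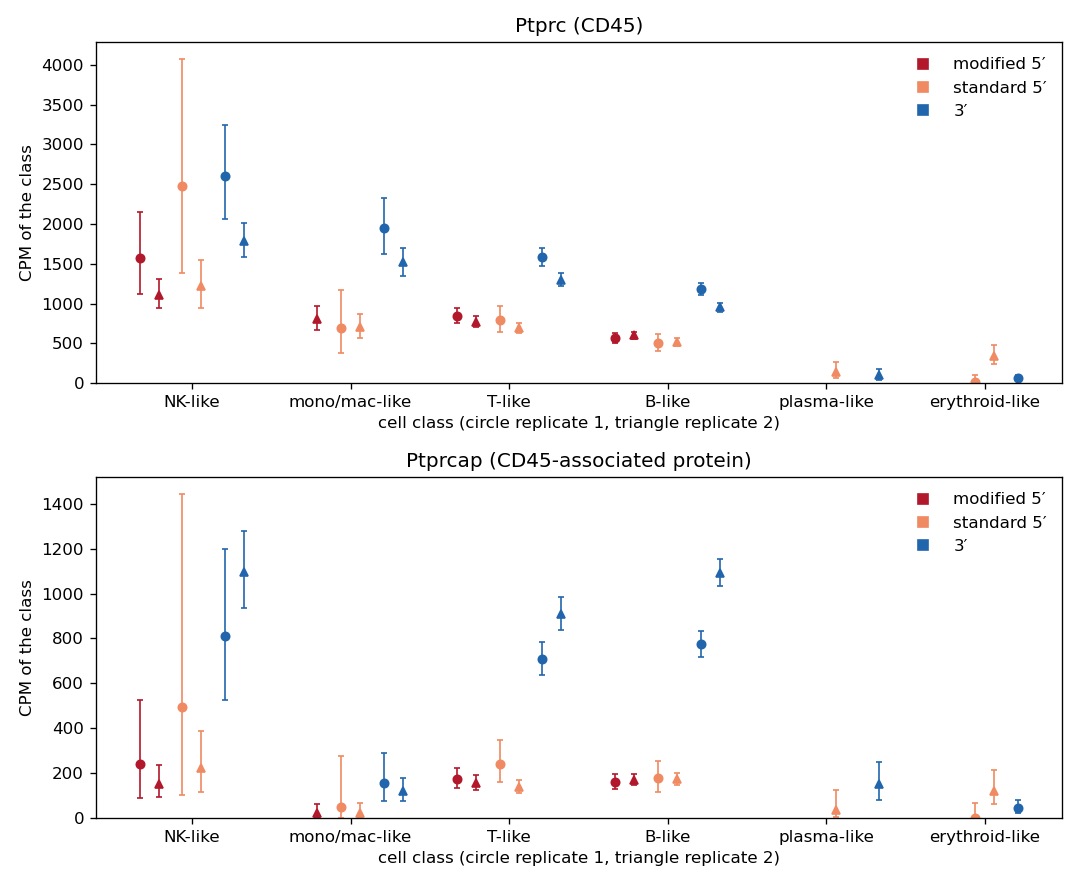
Level of Ptprc (above) and of Ptprcap (below) in CPM of each class (vertical axis) by cell class (horizontal axis), coloured by protocol, 1 point per library with exact 95% Poisson intervals for counting error. Ptprc is ordered NK-like, T-like, B-like within each library, while Ptprcap is close in these classes and low in monocyte- or macrophage-like cells.

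Both members were also lower in 5′ than in 3′ libraries within B-like and within T-like cells. In B-like cells Ptprc was at -0.53 ± 0.22 (log2, SE) in modified 5′ against 3′ libraries and -0.70 ± 0.23 in standard 5′ against 3′ libraries, and Ptprcap at -2.15 ± 0.24 and -2.05 ± 0.25. In T-like cells Ptprc was at -0.58 ± 0.22 and -0.78 ± 0.22, and Ptprcap at -2.05 ± 0.25 and -2.03 ± 0.27. Over all kept cells the values were -0.48 and -0.61 for Ptprc and -2.01 and -1.91 for Ptprcap, and whether the classes differ was not tested.

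Counted by cell, the members were sparse. A Ptprc count was seen in 28.8% and 33.3% of kept cells in modified 5′ libraries, 20.2% and 27.04% in standard 5′ libraries, and 52.8% and 44.4% in 3′ libraries. A Ptprcap count was seen in 8.06% and 9.56% of kept cells in modified 5′ libraries, 7.001% and 8.33% in standard 5′ libraries, and 35.2% and 39.0% in 3′ libraries. For both genes each 3′ library lay above all 5′ libraries. With each cell thinned to 300 counts, which left out 45 to 351 shallower cells per library, the shares for Ptprc became 17.7% and 18.2% in modified 5′ libraries, 16.2% and 16.3% in standard 5′ libraries, and 31.4% and 28.4% in 3′ libraries. The thinned shares for Ptprcap were 4.58% and 4.64% in modified 5′ libraries, 4.26% and 4.57% in standard 5′ libraries, and 18.7% and 24.6% in 3′ libraries. The order of the protocols was thus the same at equal depth. In 3′ replicate 1, 7.38% of erythroid-like cells had a Ptprc count and 6.56% a Ptprcap count. Their median was 1925 counts per cell, against 604 in all kept cells. Thinned to 300 counts, these shares were 1.26% and 1.28%. Single cells of that cluster held up to 6 counts of Ptprc and 3 of Ptprcap, and Mki67 and histone genes were among its leading genes. In standard 5′ replicate 2, 33.3% of 39 erythroid-like cells had a Ptprc count, at a median of 2010 counts, and 9.74% did when thinned, so that cluster was not free of the transcript. A Ptprcap count was seen in 30.8% of the same 39 cells and in 3.80% when thinned, against 4.57% of all kept cells of that library when thinned. As both erythroid-like clusters held Ptprc and cell cycle genes, their shares cannot serve as a measure of background. Of 163 monocyte- or macrophage-like cells in standard 5′ replicate 2, 3 had a Ptprcap count, a share of 0.56% when thinned. How much of the Ptprcap share over all kept cells is background was not tested.

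In T-like cells both genes were counted together in 4.15% and 3.88% of cells in modified 5′ libraries, 1.73% and 2.77% in standard 5′ libraries, and 24.8% and 20.6% in 3′ libraries. In B-like cells the joint share was 3.16% and 2.82% in modified 5′ libraries, 1.98% and 1.90% in standard 5′ libraries, and 19.1% and 16.4% in 3′ libraries. At the depth of each library, a cell in which both members were counted was therefore several times more frequent in 3′ libraries. The joint share was not computed at equal depth.

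The comparison of replicate 2 with replicate 1, with protocol as a covariate, is the one test of the members that their choice did not use. Of all genes tested, 414 of 11539 passed (3.59%), and neither member did. The log2 difference of replicate 2 over replicate 1 was -0.05 ± 0.15 for Ptprc (edgeR adjusted p = 0.93) and 0.12 ± 0.17 for Ptprcap (edgeR adjusted p = 0.83). The signs rested on the 3′ libraries: without 3′ replicate 1 the difference was 0.02 for Ptprc and -0.10 for Ptprcap, and without 3′ replicate 2 it was 0.02 and -0.11. Of the genes around CD45 described next, Lgals3 rose by 1.21 ± 0.22 (edgeR adjusted p = 0.00034) and Jak3 by 0.99 ± 0.25 (edgeR adjusted p = 0.016) in replicate 2 over replicate 1, where 0.659% of all tested genes rose. Within B-like and within T-like cells no tested gene of their lists passed. Monocyte- or macrophage-like cells were 0% to 3.85% of kept cells in replicate 1 and 4.44% to 6.06% in replicate 2. Lgals3 was among the leading genes of such clusters in each replicate 2 library. The part of cell class in these 2 rises was not tested.

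The genes that act around CD45 were measured in the same fit. The 58 genes of 7 lists comprised the Src family kinases it acts on, the kinase and scaffolds that oppose it, other tyrosine phosphatases, lectins and partners that bind it, Janus kinases, regulators of its exon splicing, and antigen receptor chains with the kinases below them, and 56 were tested. Against 3′ libraries, 15 rose and 2 fell in modified 5′ libraries (edgeR adjusted p under 0.05), where 10.1% of all tested genes rose and 8.24% fell. In standard 5′ libraries 18 rose and 3 fell, where 12.3% of all tested genes rose and 10.8% fell. The median log2 difference of the lists was 0.24 in modified 5′ against 3′ (all tested genes -0.02) and 0.22 in standard 5′ against 3′ (all tested genes -0.01). These differences are relative to the bulk of genes, whose median moved to -0.37 and -0.39 with library totals alone, a shift larger than these list medians. Every list gene that rose, 15 of 15 and 18 of 18, lay in the 2 shorter classes of transcript length, with median lengths of 1586 and 1739 nt, while the genes that did not pass had medians of 3562 and 3974 nt. All tested genes had a like tilt. From the shortest to the longest class, 27.3%, 11.2%, 3.41% and 1.46% of them rose in modified 5′ and 32.7%, 15.3%, 3.79% and 1.46% in standard 5′ libraries. The count is therefore not read as a trait of the lists. Between modified and standard 5′ libraries edgeR called none of the 56, and none had an unadjusted p under 0.05. Over all genes edgeR called 0 there (0%), with 446 at an unadjusted p under 0.05, and DESeq2 called 1 gene and no list gene. With the replicate number as a block 21 genes passed there, and without it 11 of 9312 (0.118%) within B-like cells and 3 of 7723 (0.0388%) within T-like cells.

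**Figure D5:**
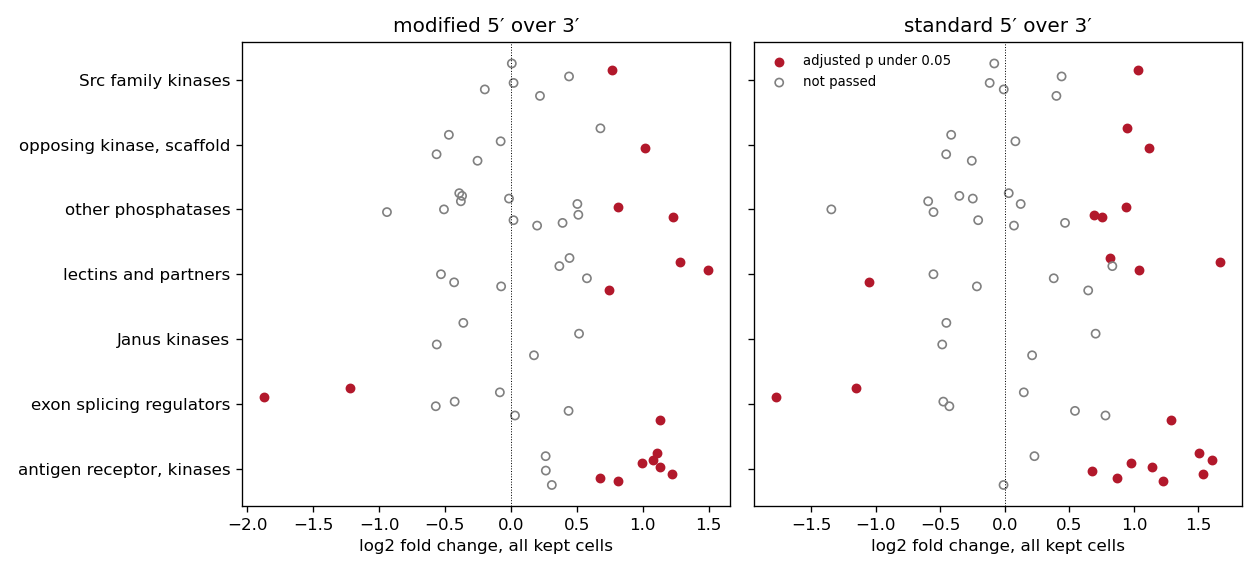
Log2 fold change over 3′ libraries (horizontal axis) of the tested genes of 7 lists (vertical axis), for modified 5′ (left) and standard 5′ (right), with filled points for genes that passed the edgeR test. Antigen receptor genes lie mostly to the right, with 7 and 8 of 10 passed as higher, and the filled points to the left are Srsf3, Thrap3 and, in standard 5′ only, Cd2ap.

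Over all kept cells, antigen receptor chains and the kinases below them had 7 of 10 higher in modified 5′ and 8 of 10 higher in standard 5′ libraries against 3′. None was lower, and the medians were 0.90 and 1.06. Within B-like cells 2 of 6 tested genes of this list rose in each comparison (medians 0.25 and 0.14), and within T-like cells 4 and 5 of 8. Cd3d, Cd3e, Cd3g, Cd79a, Cd79b and Lat lie in the shortest length class, where 27.3% and 32.7% of all genes rose over all kept cells. Cd3e, a signalling chain of the T cell receptor complex, had 381 and 427 TMM-scaled CPM in modified 5′ libraries, 474 and 525 in standard 5′ libraries, and 150 and 195 in 3′ libraries. It rose by 1.22 ± 0.21 on the log2 scale in modified 5′ (edgeR adjusted p = 0.0072) and by 1.53 ± 0.22 in standard 5′ libraries (edgeR adjusted p = 0.0027). Zap70, the kinase recruited to the phosphorylated receptor, rose by 1.10 ± 0.21 and 1.50 ± 0.22, and Lat, the adaptor it phosphorylates, by 1.08 ± 0.25 and 1.60 ± 0.25. Cd79a, a signalling chain of the B cell receptor, rose by 1.13 ± 0.24 in modified 5′, and Cd247, the zeta chain of the T cell receptor complex, by 1.22 ± 0.24 in standard 5′ libraries.

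Of the 6 Src family kinases tested over all kept cells, 1 passed. Within T-like cells 2 were tested, of which 0 rose in modified 5′ and 1 in standard 5′ against 3′ libraries. Within B-like cells 1 and 0 of 6 rose. Lck, the main substrate of CD45 in T cells, had 276 and 357 TMM-scaled CPM in modified 5′ libraries, 354 and 407 in standard 5′ libraries, and 191 and 182 in 3′ libraries, and rose by 0.76 ± 0.21 (edgeR adjusted p = 0.035) and 1.03 ± 0.21 (edgeR adjusted p = 0.011). The call in modified 5′ was lost without either modified 5′ or either 3′ library (highest edgeR adjusted p 0.24). Csk, the kinase that opposes CD45 at the same site, rose by 1.02 ± 0.21 in modified 5′ (edgeR adjusted p = 0.013) and 1.11 ± 0.21 in standard 5′ libraries (edgeR adjusted p = 0.0080). It was the one gene of 6 in its list to pass in modified 5′. With the replicate block Cblb also passed there as lower and Sla2 as higher (edgeR adjusted p = 0.039 and 0.032). In standard 5′ libraries Sla2, an adaptor named after its values were seen, also rose, by 0.95 ± 0.27 at a mean of 36.2 TMM-scaled CPM. Within T-like cells 0 of 6 tested genes of this list rose and 1 fell in modified 5′, and 1 rose in standard 5′. Within B-like cells 1 of 5 rose in each comparison and 1 fell in modified 5′. None of the 4 Janus kinases, which CD45 also dephosphorylates, passed by edgeR in either comparison, with 1 at an unadjusted p under 0.05 in modified 5′ and 0 in standard 5′. With the replicate block Jak2 passed as lower in modified 5′ against 3′ libraries (edgeR adjusted p = 0.041).

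Among 13 other tyrosine phosphatases tested, 2 rose in modified 5′ and 3 in standard 5′ libraries and none fell. Ptpn6, which codes for the inhibitory phosphatase SHP-1, rose by 0.81 ± 0.19 (edgeR adjusted p = 0.022) and 0.94 ± 0.20 (edgeR adjusted p = 0.011), and Ptpn18 by 1.23 ± 0.22 and 0.75 ± 0.22. Ptpn2 rose by 0.69 ± 0.20 in standard 5′ libraries, a call lost on leaving out any 1 of the 6 libraries. Ptpn22, which restrains Lck and was picked out after its values were seen, did not pass over all cells (edgeR adjusted p = 0.066 in modified 5′ and 0.24 in standard 5′), but passed as lower with the replicate number as a block (edgeR adjusted p = 0.0021 and 0.046). Within B-like cells it fell by 1.41 on the log2 scale in modified 5′ (edgeR adjusted p = 0.00019) and fell by 0.84 in standard 5′, and within T-like cells the differences were -0.996 and -0.82. With the same block, the lists had 24 and not 17 genes passed in modified 5′ and 26 and not 21 in standard 5′ against 3′ libraries. Those gained and not named elsewhere in modified 5′ were Cd4, as higher, and Dpp4, as lower (edgeR adjusted p = 0.047 and 0.041). In standard 5′ they were Ptpra and Ptpn4, as lower, and Lgals3, as higher (edgeR adjusted p = 0.043, 0.012 and 0.013). Cd2 also passed there as higher (edgeR adjusted p = 0.014).

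Of 9 lectins and partners, 3 rose in each comparison. Lgals9, which codes for galectin-9, a lectin that binds glycans on CD45, rose by 1.28 ± 0.21 in modified 5′ (edgeR adjusted p = 0.0055) and by 1.67 ± 0.21 in standard 5′ libraries (edgeR adjusted p = 0.0019). Lgals1, which codes for galectin-1, rose by 1.49 ± 0.23 and 1.04 ± 0.23. Cd2, an adhesion receptor of T cells, rose by 0.74 ± 0.22 in modified 5′, and Skap1, an adaptor in T cells, by 0.82 ± 0.22 in standard 5′ libraries. Cd2ap, an adaptor that binds the tail of CD2, went against its list and fell by 1.05 on the log2 scale in standard 5′ libraries (SE 0.28, edgeR adjusted p = 0.027), and its longest coding transcript has 5364 nt.

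The regulators of CD45 exon splicing moved both ways. Srsf3, a splicing factor, had 119 and 122 TMM-scaled CPM in modified 5′ libraries, 123 and 133 in standard 5′ libraries, and 417 and 463 in 3′ libraries, with no overlap. It fell by 1.87 on the log2 scale in modified 5′ (SE 0.20, edgeR adjusted p = 0.0016) and fell by 1.77 in standard 5′ libraries (SE 0.20, edgeR adjusted p = 0.0014). Thrap3, a cofactor that binds the splicing factor PSF in human T cells, fell by 1.22 in modified 5′ and fell by 1.16 in standard 5′ libraries. Hnrnpl, an RNA-binding repressor of exon 4 known from human cells, went against them and rose by 1.13 ± 0.21 and 1.29 ± 0.22. Hnrnpll, a repressor of these exons in lymphocytes that is named here for its role after its values were seen, averaged 17.5 TMM-scaled CPM and did not pass (edgeR adjusted p = 0.98 and 0.23). The other 4 of the 8 regulators tested did not pass over all cells in either comparison. With the replicate block, however, Sfpq passed as lower in modified 5′ (edgeR adjusted p = 0.024).

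Within B-like cells 47 list genes were tested, of which 10 rose and 7 fell in modified 5′ and 9 rose and 7 fell in standard 5′ against 3′ libraries, where 29.0% and 33.9% of all genes passed in either direction. Within T-like cells 46 were tested, of which 8 rose and 4 fell in modified 5′ and 11 rose and 4 fell in standard 5′ libraries, where 19.4% and 24.5% of all genes passed.

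Leaving out 1 library removed many of these calls. The lists had 6 and 5 genes passed in modified 5′ against 3′ without modified 5′ replicate 1 and replicate 2 and 7 without 3′ replicate 1, and 5 in standard 5′ against 3′ without standard 5′ replicate 2. No list gene named here that had passed changed its direction under any of these. Without standard 5′ replicate 1, the library that stood apart, 17 list genes passed in each comparison. In modified 5′ against 3′, Csk, Ptpn6, Cd247, Cd79a and Lat were lost without either modified 5′ library or without 3′ replicate 1, Cd2 without these or without standard 5′ replicate 2, and Zap70 without modified 5′ replicate 2 or 3′ replicate 1. Ptpn18 and Hnrnpl were lost without modified 5′ replicate 1, and Thrap3 and Cd3e without modified 5′ replicate 2. In standard 5′ against 3′, Lck, Csk, Ptpn6, Lgals1, Hnrnpl, Thrap3, Cd247 and Cd79a were lost without standard 5′ replicate 2. Skap1 and Cd2ap were lost without either standard 5′ library or 3′ replicate 1, Ptpn18 without either standard 5′ library or 3′ replicate 2, and Sla2 on all omissions other than standard 5′ replicate 1 and 3′ replicate 2. Lgals9, Srsf3 and Coro1b passed in both comparisons on leaving out any 1 of the 6 libraries.

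The genes whose pattern was most like that of each member were found by Pearson's r of log2(CPM + 10) over 12 points, B-like and T-like cells in 6 libraries, among 3506 genes of at least 50 CPM. These points share libraries and depth, and the ranking is a description. Nearest to Ptprc were Nfrkb, Mbnl1, Zfp292, Klf13 and Prrc2c, with r of 0.97 to 0.98 and coding transcripts of 5161 to 11502 nt. Nearest to Ptprcap were Pnisr, Selenok, Srsf3, Prpf39 and Psma7, with r of 0.97 to 0.98 and lengths of 1157 to 4545 nt. Selenok was at -2.21 ± 0.23 (log2, SE) in modified 5′ against 3′ and -1.88 ± 0.23 in standard 5′ against 3′, and Psma7 at -2.01 ± 0.22 and -2.22 ± 0.24, sizes close to those of Ptprcap. The members themselves correlated at 0.82, which placed Ptprcap 396th among the genes ranked for Ptprc.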

How the data were processed

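The authors deposited whole-number counts for each gene in each barcode, with no normalization. Per the submitters' processing notes the build was mm10 and Seurat was used, with no role given; for the aligner, annotation, strand use, cell calling and collapse of molecular identifiers, nothing is given in the sources used here. Counts are not known to be independent molecules, so intervals (exact Poisson or binomial, 95%) and limits from 3 counts describe counting error alone.

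The filter kept barcodes with 200 genes or more and no more than 20% mitochondrial counts. Scrublet marked at most 0.601% of the cells of a library, which is no working doublet filter, so doublets may remain. Each library was clustered (scanpy 1.11.5, 2000 variable genes without the members, 30 components, Leiden resolution 0.5) and clusters were named from listed markers. Counts were summed per library, and per class where all 6 libraries had at least 50 cells, and fitted over all genes with edgeR 4.0.16 in R 4.3.3 (filterByExpr, TMM, quasi-likelihood test, Benjamini-Hochberg, threshold 0.05), with no replicate term for protocols and protocol as covariate for replicates. The procedure was tested on simulated data. DESeq2 1.42.0 was an alternative, as were a replicate block, other scalings and filters, all barcodes, removal of haemoglobin counts, single classes and leaving out each library.

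Replicate numbers, 1 of which comes from accession order, marked shared deviations: libraries of the same number correlated at 0.42, 0.51 and 0.61 over 6842 genes in the 3 pairs of protocols. Members and gene lists were chosen with earlier results of these data known. Of each list and comparison, up to 4 genes that passed were named by size of change, at a mean of at least 50 CPM, with any gene against its list, the 5 genes most like each member, and the genes overlapping a member.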

Additional observations from a re-analysis of the deposited data

How the results depend on the processing

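Ptprc and Ptprcap lay below 0 in both 5′ against 3′ comparisons under all 15 alternatives run, Ptprc at -0.83 to -0.37 in modified 5′ and -0.99 to -0.51 in standard 5′, and Ptprcap at -2.37 to -1.73 and -2.30 to -1.63. The low ends came from library totals without TMM (chosen after seeing the data) and the high ends from leaving out 3′ replicate 1 for Ptprc and 3′ replicate 2 for Ptprcap. Library totals also put 17.8% and 17.4% of called genes as higher in modified and standard 5′ against 3′, where TMM gave 55.1% and 53.4%. Ptprc in standard 5′ against 3′ was at -0.78 in T-like cells. In modified against standard 5′, Ptprc was at 0.15 with all barcodes, 0.15 without haemoglobin counts, 0.16 with library totals, 0.18 in B-like cells, 0.19 in T-like cells and 0.12 to 0.15 on leaving out a library. With the replicate block, 21, 3779 and 4110 genes passed in modified against standard 5′, modified 5′ against 3′ and standard 5′ against 3′, where the fit without it called 0, 2116 and 2664. DESeq2 called 1, 1251 and 1587, and 187 in replicate 2 over replicate 1, and no filter gave 65 in modified against standard 5′. Leaving out a library gave 0 to 1, 487 to 2175 and 227 to 2701 genes in the 3 protocol comparisons, 5 to 19 and 5 to 23 list genes against 3′, and 108 to 643 genes in replicate 2 over replicate 1, where B-like cells gave 10 and T-like cells 9. In replicate 2 over replicate 1, Ptprc ranged from -0.080 to 0.019 and Ptprcap from -0.11 to 0.26 on leaving out a library, and Ptprcap was at -0.059 in T-like cells. The count ratio was 3.53 in B-like and 4.91 in T-like cells of modified 5′ and 2.90 and 4.13 in standard 5′ libraries, where all kept cells gave 4.32 and 3.68. Thinned to 300 counts, shares of cells with a count averaged 17.9%, 16.3% and 29.9% for Ptprc and 4.61%, 4.42% and 21.6% for Ptprcap in modified 5′, standard 5′ and 3′ libraries. The cause of these changes was not tested. The replicate block changed no statement on the members.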
